A study of Mus musculus with 12 samples.

Results

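Deletion of Id2 alone was examined in natural killer (NK) cells sorted from mouse bone marrow. Bulk RNA sequencing of 3 Id2KO libraries was compared with 3 control (Ctrl) libraries, 6 of the 12 libraries in the series, and a gene was tested where 3 or more of the 12 libraries had it at 1 FPKM or above. FPKM is a fragment count scaled to gene length and sequencing depth, so levels can be compared between genes. The Id2KO mice carried Ncr1Cre and 2 floxed Id2 alleles (Ncr1Cre Id2F/F). The controls are given as Id2F/F in the sorting protocol and as Id2F/F or Id2F/FTcf7F/F in the series design, and which control library has which genotype is not stated. Neither description gives the controls Cre, so Cre and loss of Id2 enter this comparison together. Of the other 6 libraries, 3 came from Ncr1Cre Tcf7F/F mice (Tcf1KO) and 3 from Ncr1Cre Id2F/F Tcf7F/F mice (DKO). They entered the fit for its estimate of the spread, and DKO against Tcf1KO serves below as the other pair that differs in targeted Id2. All mice were C57Bl/6, with no age given, and the sort took NK1.1+ cells that were also CD49b+ (the protocol writes CD9b). Replicates are called independent, without saying that they were separate animals, and the p-values cover only how far these samples spread.

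Id2 encodes a helix-loop-helix protein with no DNA-binding region of its own. It pairs with E proteins, the transcription factors made from Tcf3, Tcf4 and Tcf12, and keeps them from binding the short DNA motif called an E-box. NK cells express much Id2, and its relative Id3 is itself an E protein target in lymphocytes. Ncr1 encodes the receptor NKp46, which appears once cells are committed to the NK lineage, so Ncr1Cre acts in those cells and in other innate lymphoid cells that express it. As bone marrow NK cells mature they gain the integrin CD11b (Itgam), the inhibitory receptor KLRG1 and the egress receptor S1PR5, and they lose CD27.

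The targeted gene was checked first. Id2 stood at 124, 163 and 170 FPKM in the 3 Ctrl libraries and at 17.8, 17.1 and 19.2 FPKM in the 3 Id2KO libraries. Every Id2KO library was below every Ctrl library, and the mean was 8.44-fold lower. On the scale of log2(FPKM + 1), used for all fold changes here, Id2 fell by 3.00 (SE 0.16, limma adjusted p = 1.52e-05). Which exons the floxed alleles remove is not given, so what the remaining Id2 reads come from was not tested. Recovered reads per library ranged from 13944712 to 20166396 over the 12 libraries. The NK genes that define the sort were present in both groups. Klrb1c, which encodes NK1.1, lay between 68.6 and 85.5 FPKM in Ctrl and between 60.3 and 80.5 FPKM in Id2KO. Itga2, which encodes CD49b, lay between 43.5 and 52.3 FPKM in Ctrl and between 23.4 and 41.6 FPKM in Id2KO, lower without overlap and without a call (adjusted p = 0.414). Ncr1 read 203, 168 and 204 FPKM in Ctrl and 138, 148 and 85.8 FPKM in Id2KO (adjusted p = 0.346), and the 2 groups did not overlap. Klrb1c, Itga2 and Ncr1 belong to a list of 14 NK identity genes, none of which passed an adjusted p of 0.05. Of the 14, 13 had a fold change below 0, where 50.9% of all tested genes did. Lower without overlap were 5, where 6.75% of all tested genes were. Summed, the list read 4570.5, 5038.4 and 4966.7 FPKM in Ctrl and 3908.6, 4465.3 and 3210.1 FPKM in Id2KO. RNA of the Y-linked gene Ddx3y was found in 1 of the 3 Ctrl and 1 of the 3 Id2KO libraries, so the sexes were balanced between these 2 groups.

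With limma, 22 of 12384 genes (0.178%) passed an adjusted p of 0.05, and are referred to as called. Of these, 13 rose (0.105%) and 9 fell (0.0727%). At an unadjusted p under 0.05 there were 1202 genes (9.71%), and the Id2KO and Ctrl libraries did not overlap, all of one group lying above all of the other, for 1716 genes (13.9%). Of the latter, 880 were higher (7.11%) and 836 lower (6.75%). The median log2 fold change over all tested genes was -0.008, with 49.0% of genes above 0 and 50.9% below. The genes that fell were Id2, 3 markers of NK maturation (Klrg1, S1pr5 and Itgam), 2 lectin receptors (Klrb1b and Klra9), the interleukin-12 receptor chain Il12rb2, Fgl2 and Slc27a4. The genes that rose were Id3, Tcf7, Hdac4, Cd3d, Cd163l1, Nsg2, Mcoln2, Clip3, Drc1, Plcd3, Sult5a1 and a pair of non-coding entries, Gm17218 and Gm16288. None of the 22 had overlapping libraries. When each of the 12 libraries was left out in turn, 10 of the 22 passed every time (Id2, Itgam, Nsg2, Klrg1, Sult5a1, Klrb1b, Cd163l1, S1pr5, Fgl2 and Gm17218), Id3 passed 11 times, and Il12rb2, Tcf7, Slc27a4, Plcd3, Clip3 and Mcoln2 at most 4 times. These fits kept the genes filtered on all 12 libraries. Sult5a1 and Plcd3 reached 1 FPKM only in the 3 Id2KO libraries, so without any 1 of those they would not meet the filter. Fitted on the 6 libraries of the 2 groups alone, 2 genes passed, Id2 and Nsg2. In bulk RNA, fewer cells of a type and less RNA per cell cannot be told apart, and this holds for each change below.

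**Figure D1:**
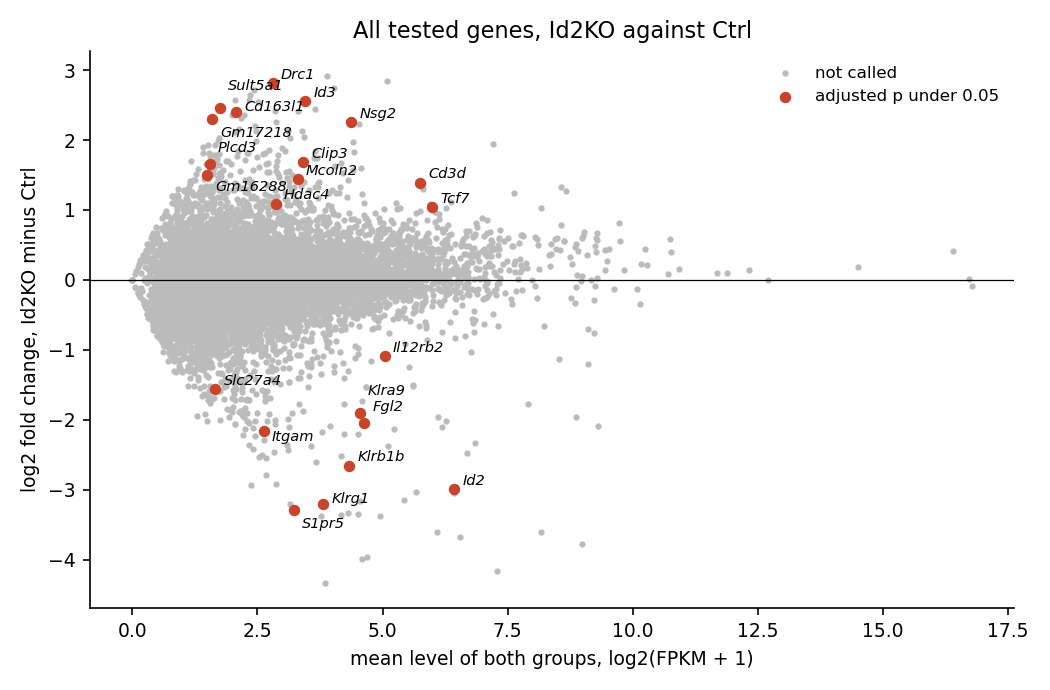
Log2 of 1 plus the mean FPKM over the Ctrl and Id2KO libraries (horizontal axis) against the log2 fold change, Id2KO minus Ctrl (vertical axis), with 1 point for each of the 12384 tested genes and the 22 genes at an adjusted p under 0.05 coloured and named. The coloured points lie on both sides of 0, 13 above and 9 below.

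The largest falls among the called genes were those of 2 markers of terminal maturation, S1pr5 and Klrg1, and Itgam, another such marker, fell with them. S1pr5, the sphingosine-1-phosphate receptor that lets mature NK cells leave the marrow, read 9.5, 23.4 and 15 FPKM in Ctrl and 1.41, 0.395 and 0.322 FPKM in Id2KO. Klrg1 read 26.1, 28.9 and 17.8 FPKM in Ctrl and 2.88, 2.04 and 0.65 FPKM in Id2KO. Itgam read 9.69, 8.77 and 8.76 FPKM in Ctrl and 1.14, 1.65 and 1 FPKM in Id2KO. For each of the 3 the highest Id2KO library was well below the lowest Ctrl library. S1pr5 fell by 3.28 on the log2 scale (SE 0.359, limma adjusted p = 0.00298), with means 22.6-fold apart. Klrg1 fell by 3.20 (SE 0.295, adjusted p = 0.00109), with means 13.1-fold apart. Itgam fell by 2.16 (SE 0.189, adjusted p = 0.000974), with means 7.19-fold apart.

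**Figure D2:**
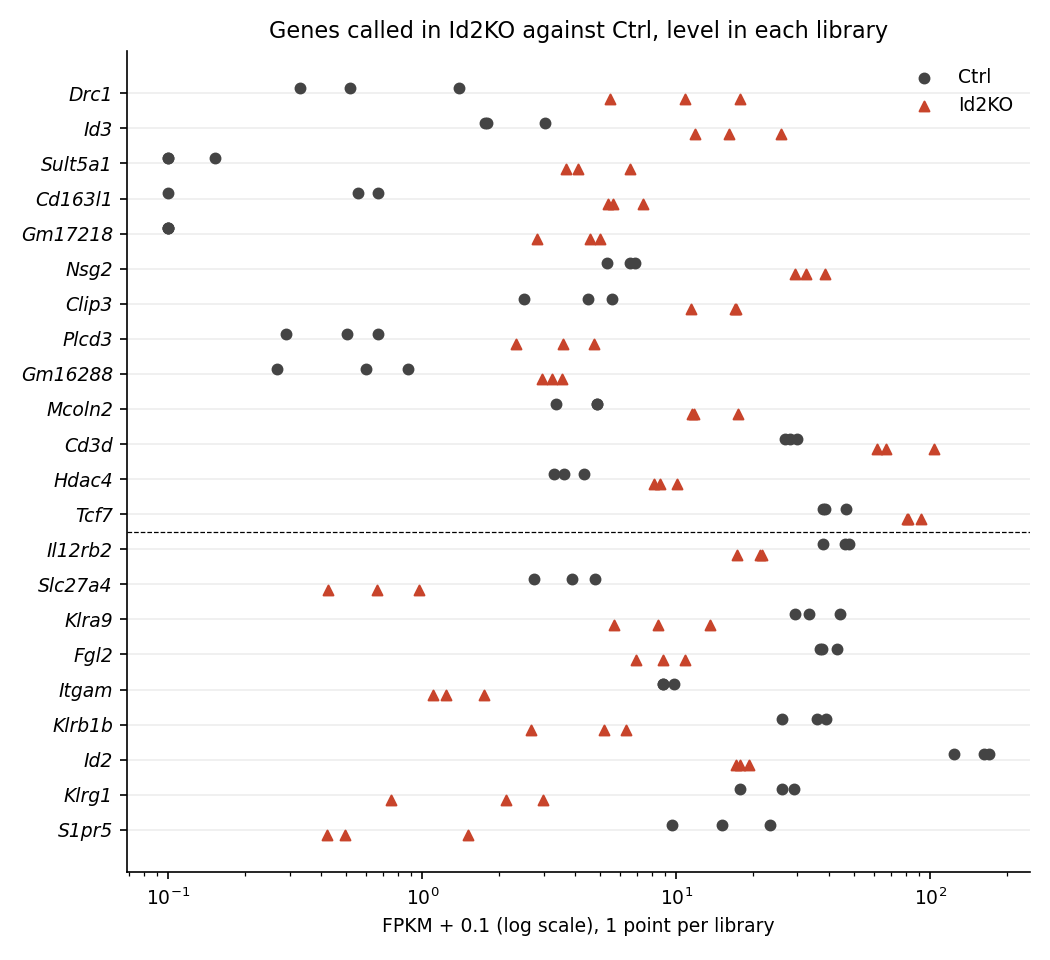
FPKM in each library (horizontal axis, FPKM + 0.1 on a log scale) for the 22 genes at an adjusted p under 0.05, 1 row a gene, with the 3 Ctrl and 3 Id2KO libraries as separate points. In every row the Ctrl points and the Id2KO points stand apart.

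Itgam is also expressed by neutrophils and other myeloid cells, and myeloid RNA differed between the libraries. S100a8, a granule protein gene of neutrophils, read 667, 1680.4 and 295 FPKM in Ctrl and 4.48, 69.4 and 331 FPKM in Id2KO. The third Id2KO library therefore held more S100a8 than the third Ctrl library, and its summed myeloid list was also higher, at 1061.6 against 931 FPKM. Other neutrophil genes were lower in that Id2KO library than in that Ctrl library, among them Elane at 0 against 4.4 FPKM, Mpo at 0.568 against 1.49 FPKM and Ngp at 116 against 140 FPKM. S100a8 was chosen after its values were seen, and the shared replicate number does not pair these 2 libraries. In the same 2 libraries Itgam was 1 FPKM and 8.76 FPKM, Klrg1 was 0.65 and 17.8 FPKM, and S1pr5 was 0.322 and 15 FPKM. The part of myeloid RNA in the Itgam change was not tested. A further fit carried a score of myeloid, erythroid and basophil markers as a term. The score was 0.517, 0.98 and -0.141 in Ctrl and -1.358, -1.083 and -0.042 in Id2KO. It thus largely followed the group, and this fit cannot tell the 2 apart. With the score 11 genes passed, of which 10 were among the 22, the same 10 that passed with each library left out. The other 12 of the 22 did not pass, among them Tcf7 (adjusted p = 0.259), Hdac4 (0.212), Cd3d (0.214) and Id3 (0.166). With limma and the score, Itgam had a log2 fold change of -2.075 (adjusted p = 0.0207), Klrg1 of -3.359 (adjusted p = 0.0207) and S1pr5 of -3.513 (adjusted p = 0.0259), and all 3 passed. Without the 3 libraries of lowest weight in the fit, S1pr5 did not pass (adjusted p = 0.0876).

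**Figure D3:**
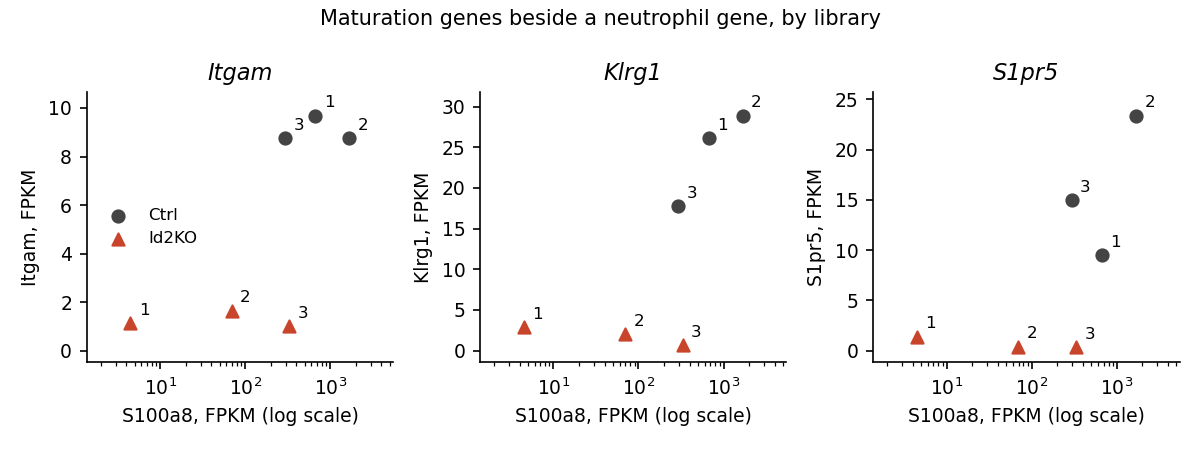
Itgam, Klrg1 and S1pr5 (vertical axes, FPKM) against the neutrophil gene S100a8 (horizontal axes, FPKM, log scale) in the 3 Ctrl (circles) and 3 Id2KO (triangles) libraries, numbered by replicate. Id2KO replicate 3 has an S100a8 level of 331 FPKM, above the 295 FPKM of Ctrl replicate 3, and is below every Ctrl library for all 3 plotted genes. S100a8 was chosen after its values were seen.

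Gene lists were drawn from general knowledge of NK cells and their neighbours. Most other genes of the terminal maturation list were lower without passing the test. Of its 27 tested members 3 fell, the markers Itgam, Klrg1 and S1pr5 given above, where 0.0727% of all tested genes did. None rose, and 14 had all Id2KO libraries below all Ctrl libraries, where 6.75% of all tested genes did. The median log2 fold change was -0.45. Prdm1, the gene of the repressor Blimp-1, read 11, 5.52 and 8.68 FPKM in Ctrl and 3.14, 1.28 and 1.83 FPKM in Id2KO (log2 fold change -1.61, adjusted p = 0.0506). Cma1, a protease gene, read 13.4, 29.6 and 18.4 FPKM in Ctrl and 0.655, 4.92 and 2.89 FPKM in Id2KO (adjusted p = 0.0624). Zeb2, a repressor needed for late maturation, read 5.23, 5.31 and 5.21 FPKM in Ctrl and 2, 1.19 and 2.22 FPKM in Id2KO (adjusted p = 0.14). None of these 3 genes had overlapping libraries. Tbx21, which encodes T-bet, was between 24.0 and 31.3 FPKM in Ctrl and between 17.7 and 22.4 FPKM in Id2KO (log2 fold change -0.44, adjusted p = 0.41). Its relative Eomes overlapped between the groups, at 42.2 to 54.4 FPKM against 29.9 to 46.6 FPKM (log2 fold change -0.26, adjusted p = 0.688).

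Cytotoxic granule genes gave no call. Of 21 tested members of that list 17 had a fold change below 0, where 50.9% of all tested genes did, and 6 were lower without overlap, where 6.75% did. Gzmb, a granzyme that triggers apoptosis in target cells, read 147, 108 and 97.2 FPKM in Ctrl and 21.4, 35.5 and 23.5 FPKM in Id2KO, 4.39-fold lower in the mean (log2 fold change -2.10, SE 0.353, limma adjusted p = 0.0506). Prf1, which encodes the pore-forming protein perforin, read 66.2, 68.6 and 79.1 FPKM in Ctrl and 22.6, 25.7 and 24.1 FPKM in Id2KO, 2.95-fold lower (log2 fold change -1.52, SE 0.264, adjusted p = 0.0603). Both lay just outside the threshold with limma on FPKM. With limma's voom on the recovered reads their adjusted p was 0.0205. Gzma, another granzyme gene, was between 702 and 807 FPKM in Ctrl and between 211 and 470 FPKM in Id2KO (adjusted p = 0.186). Ccl5, a chemokine gene that cytotoxic lymphocytes express highly, was between 595 and 905 FPKM in Ctrl and between 361 and 503 FPKM in Id2KO (adjusted p = 0.31).

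In the NKR-P1 and Ly49 receptor families, the changes that passed were in 1 member each. Klrb1b, an inhibitory NKR-P1 receptor, read 26.0, 35.6 and 38.7 FPKM in Ctrl and 6.25, 5.07 and 2.58 FPKM in Id2KO. It fell by 2.65 on the log2 scale (SE 0.268, limma adjusted p = 0.00185). Klra9, of the Ly49 family, read 33.2, 44.2 and 29.2 FPKM in Ctrl and 13.5, 8.38 and 5.57 FPKM in Id2KO, and fell by 1.90 (SE 0.271, adjusted p = 0.0193). Ly49 genes are close copies of one another, so reads may be split between them, and how multiply mapped reads were handled is not given. Of the 15 tested Ly49 genes 1 fell, where 0.0727% of all tested genes did, and none rose. A fold change below 0 was found for 12, where 50.9% of all tested genes had one, and the median was -0.31. Klra8, which encodes Ly49H, was at 109 to 152 FPKM in Ctrl and 57.1 to 83.6 FPKM in Id2KO (adjusted p = 0.483). Klra6 was higher without overlap, at 32 to 51.5 FPKM in Ctrl and 55.4 to 63.0 FPKM in Id2KO (adjusted p = 0.601). The 26 tested NKG2 and activating receptor genes held no call, and their median was 0.01. Klrg1, Klrb1b, Klra9 and Il12rb2 all lie on chromosome 6, at 122270596 to 122282882, 128813706 to 128826331, 130178675 to 130193112 and 67291318 to 67376188 (GRCm38, GENCODE M21). Il12rb2 is thus far from the others, and the share of all tested genes on chromosome 6 was not counted.

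Il12rb2, the signalling chain of the receptor for interleukin-12, read 37.8, 47.7 and 45.9 FPKM in Ctrl and 17.3, 21.3 and 21.7 FPKM in Id2KO. It fell by 1.08 on the log2 scale (SE 0.163, limma adjusted p = 0.0274) and each Id2KO library was below each control. Il12rb2 overlaps Serbp1 on the opposite strand, and whether counting used strand is not given. Of 32 tested interleukin receptor and STAT genes it was the single call, and the median of that list was 0.05. Without overlap 5 of the 32 were higher, where 7.11% of all tested genes were, and 6 were lower, Il12rb2 included, where 6.75% were. Among those lower without a call were Il18rap (log2 fold change -0.59) and Ifngr2 (-0.81). Il4ra, a receptor chain for interleukins 4 and 13, stood at 6.93, 8.16 and 11.9 FPKM in Ctrl and at 21.1, 17.0 and 29.6 FPKM in Id2KO (adjusted p = 0.0914). Il21r stood at 5.99, 4.08 and 8.93 FPKM in Ctrl and at 14.2, 21.1 and 15.6 FPKM in Id2KO (adjusted p = 0.123). Il2ra, the high-affinity chain of the interleukin-2 receptor, was between 0.728 and 1.21 FPKM in Ctrl and between 2.74 and 12.3 FPKM in Id2KO (adjusted p = 0.197). These 3 receptor genes were higher in each Id2KO library than in any Ctrl library but did not pass.

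The remaining genes that fell have other roles. Fgl2, which encodes a fibrinogen-like protein, read 36.6, 37.4 and 42.8 FPKM in Ctrl and 10.7, 6.83 and 8.75 FPKM in Id2KO, and fell by 2.05 (SE 0.237, limma adjusted p = 0.00454). Fgl2 overlaps Ccdc146 on the other strand. Slc27a4, a fatty acid transport protein gene, read 4.70, 3.79 and 2.66 FPKM in Ctrl and 0.869, 0.325 and 0.565 FPKM in Id2KO, and fell by 1.56 (SE 0.24, adjusted p = 0.0282). For Fgl2 the gap between the groups was wider than the range within either, and for Slc27a4 it was narrower than the range of the Ctrl libraries.

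Among the genes that rose, Id3 and Tcf7 encode regulators. Id3 read 1.70, 2.93 and 1.66 FPKM in Ctrl and 11.7, 25.8 and 16.0 FPKM in Id2KO. It rose by 2.56 on the log2 scale (SE 0.329, limma adjusted p = 0.0102), 8.51-fold in the mean. With the other-lineage score as a term Id3 did not pass (limma log2 fold change 2.36, adjusted p = 0.166). The mean Id3 level in Id2KO, 17.8 FPKM, was about that of the remaining Id2, 18 FPKM, and far under the 152 FPKM of Id2 in Ctrl. Tcf7, which encodes TCF-1, a factor of early NK cells and naive T cells, read 37.7, 38.6 and 46.5 FPKM in Ctrl and 81.5, 92.1 and 80.9 FPKM in Id2KO, 2.07-fold higher (log2 fold change 1.04, SE 0.158, adjusted p = 0.0279). Each Id2KO library thus held more Tcf7 than any control. Hdac4, a class II histone deacetylase gene, read 4.24, 3.19 and 3.50 FPKM in Ctrl and 8.49, 10 and 8.10 FPKM in Id2KO, and rose by 1.09 (SE 0.151, adjusted p = 0.0182). Hdac4 was also above every Ctrl library in Tcf1KO, where Id2 is not targeted, at 6.61, 6.55 and 6.26 FPKM (limma adjusted p against Ctrl = 0.318).

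Cd3d, which encodes the CD3 delta chain of the T cell receptor complex, read 29.8, 28.0 and 26.6 FPKM in Ctrl and 67.2, 103 and 61.5 FPKM in Id2KO. It rose by 1.39 on the log2 scale (SE 0.196, limma adjusted p = 0.0183). Cd3d was also above every Ctrl library in Tcf1KO, where Id2 is not targeted, at 51.6, 70.6 and 68.3 FPKM (limma adjusted p against Ctrl = 0.171). Cd3g, the gamma chain gene next to it, was at 23.1 to 40.1 FPKM in Ctrl and 42.1 to 66.2 FPKM in Id2KO (adjusted p = 0.267). Cd3e, the third CD3 gene, overlapped, at 111 to 147 FPKM in Ctrl and 85.8 to 218 FPKM in Id2KO (log2 fold change -0.04, adjusted p = 0.982). Of 16 tested genes of this complex 1 rose, where 0.105% of all tested genes did, and 5 were higher without overlap, where 7.11% did. None was lower without overlap, and the median was 0.25. Trbc1, a beta chain constant region, was at 318 to 447 FPKM in Ctrl and 512 to 874 FPKM in Id2KO (limma adjusted p = 0.298). Trbc2, the other beta constant region, was at 262 to 297 FPKM in Ctrl and 388 to 506 FPKM in Id2KO (adjusted p = 0.315). Both were higher without overlap and without a call, while Trac, the alpha constant region, overlapped at 141 to 194 FPKM in Ctrl and 143 to 320 FPKM in Id2KO. Cd4 did not exceed 3.98 FPKM in any of the 6 libraries, and Cd8b1 did not exceed 2.47 FPKM. Cd8a reached 3.54 FPKM in Ctrl and 6.87 FPKM in the third Id2KO library. Cd163l1, a scavenger receptor gene known from gamma delta T cells, read 0.457, 0.571 and 0 FPKM in Ctrl and 5.54, 7.28 and 5.26 FPKM in Id2KO, and rose by 2.40 (SE 0.251, adjusted p = 0.00217). Tcrg-C1, a gamma chain constant region, was at 33.6 to 53.2 FPKM in Ctrl and 57.1 to 87.2 FPKM in Id2KO (adjusted p = 0.273). Tcrg-C2 and Tcrg-C4 overlapped. Zbtb16, of the same list, was lower without overlap, at 0.743 to 2.85 FPKM in Ctrl and 0.29 to 0.538 FPKM in Id2KO (adjusted p = 0.31). Of the 11 tested NKT and gamma delta T genes Cd163l1 was the single call, and the median was -0.03. Without overlap 2 were higher, where 7.11% of all tested genes were, and 1 lower, where 6.75% were. Sox13, a factor of gamma delta T cells, was at most 0.383 FPKM in the 6 libraries. The part of T cells in the Cd3d, Cd163l1 and Tcf7 changes was not tested.

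The other genes that rose are not known mainly as NK genes. Nsg2, which encodes an endosomal protein first described in neurons and also found in naive T cells, read 6.80, 5.22 and 6.47 FPKM in Ctrl and 32.4, 38.5 and 29.2 FPKM in Id2KO. It rose by 2.26 (SE 0.2, limma adjusted p = 0.000974), 5.41-fold in the mean. Mcoln2, a lysosomal cation channel gene, read 4.79, 3.25 and 4.76 FPKM in Ctrl and 11.6, 17.4 and 11.4 FPKM in Id2KO (log2 fold change 1.45, adjusted p = 0.0433). All 3 Id2KO libraries stood above the Ctrl libraries for both genes. Clip3, which encodes a microtubule-binding protein, read 5.47, 2.42 and 4.38 FPKM in Ctrl and 17.1, 16.9 and 11.3 FPKM in Id2KO (log2 fold change 1.69, adjusted p = 0.0433). Drc1, a dynein regulatory complex gene of cilia, read 1.29, 0.23 and 0.419 FPKM in Ctrl and 10.7, 17.8 and 5.36 FPKM in Id2KO (log2 fold change 2.82, adjusted p = 0.0274). For Drc1 the Id2KO libraries also differed among themselves, the second being the highest.

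Several genes went from near 0 to a few FPKM. Sult5a1, a sulfotransferase gene, read 0.0519, 0 and 0 FPKM in Ctrl and 4.02, 6.47 and 3.59 FPKM in Id2KO (log2 fold change 2.45, SE 0.237, limma adjusted p = 0.00141). Plcd3, a phospholipase C gene, read 0.19, 0.407 and 0.566 FPKM in Ctrl and 3.48, 4.63 and 2.23 FPKM in Id2KO (log2 fold change 1.65, adjusted p = 0.0279). Both genes reached 1 FPKM only in the 3 Id2KO libraries, so each entered the test through that group alone. At a pseudocount of 0.1 neither passed, with an adjusted p of 0.0647 for Sult5a1 and 0.215 for Plcd3. The pseudocount of 1 makes these fold changes smaller than the ratio of the FPKM values. At 0.1 limma also gave no call for Cd163l1 (adjusted p = 0.0655), Drc1 (0.0638), Clip3 (0.0638), Gm16288 (0.0632) and Mcoln2 (0.0632). The other 15 of the 22 genes passed there. Gm17218, an antisense transcript that overlaps Ergic1, at 26620358 to 26625100 on chromosome 17, was listed at 0 in the 3 Ctrl libraries and at 2.74, 4.47 and 4.91 FPKM in Id2KO (adjusted p = 0.00497). Outside Id2KO, Gm17218 reached 1 FPKM only in Tcf1KO replicate 1 (1.21 FPKM) and DKO replicate 1 (1.47 FPKM), so it met the filter only with the Id2KO libraries. Gm16288, a processed pseudogene that overlaps Selenoi, at 30240082 to 30240448 on chromosome 5, read 0.168, 0.78 and 0.501 FPKM in Ctrl and 2.87, 3.46 and 3.13 FPKM in Id2KO (6.53-fold in the mean, adjusted p = 0.0182). Reads of these 2 entries cannot be told apart from those of the genes they overlap unless counting used strand. A pseudogene may also take reads of its parent gene.

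E proteins bind E-boxes, of the form CANNTG, so the promoter letters of the genes that moved are shown for 3 that rose (Nsg2, Cd3d and Drc1), each chosen for carrying the E-box CACCTG or its other strand CAGGTG, and for 2 maturation markers that fell (S1pr5 and Itgam). Each run gives the 250 bases before a RefSeq start in GRCm38.p6, 5′ to 3′ on the strand of the gene, with every CANNTG in capitals.
Nsg2, chr11:32000169-32000418, plus strand: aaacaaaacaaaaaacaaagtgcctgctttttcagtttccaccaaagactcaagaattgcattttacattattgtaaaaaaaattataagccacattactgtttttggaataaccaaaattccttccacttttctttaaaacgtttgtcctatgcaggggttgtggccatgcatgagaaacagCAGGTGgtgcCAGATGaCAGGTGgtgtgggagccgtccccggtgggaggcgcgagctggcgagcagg
Cd3d, chr9:44981536-44981785, plus strand: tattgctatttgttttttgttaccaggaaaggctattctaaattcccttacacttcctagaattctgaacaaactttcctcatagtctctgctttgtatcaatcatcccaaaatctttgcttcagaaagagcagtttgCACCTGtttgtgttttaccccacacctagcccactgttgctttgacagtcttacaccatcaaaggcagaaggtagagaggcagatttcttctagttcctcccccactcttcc
Drc1, chr5:30281143-30281392, plus strand: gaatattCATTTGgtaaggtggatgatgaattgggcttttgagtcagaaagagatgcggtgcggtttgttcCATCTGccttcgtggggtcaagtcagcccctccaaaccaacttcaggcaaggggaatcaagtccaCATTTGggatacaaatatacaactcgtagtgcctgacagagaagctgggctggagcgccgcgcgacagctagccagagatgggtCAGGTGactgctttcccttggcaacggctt
S1pr5, chr9:21248444-21248693, minus strand: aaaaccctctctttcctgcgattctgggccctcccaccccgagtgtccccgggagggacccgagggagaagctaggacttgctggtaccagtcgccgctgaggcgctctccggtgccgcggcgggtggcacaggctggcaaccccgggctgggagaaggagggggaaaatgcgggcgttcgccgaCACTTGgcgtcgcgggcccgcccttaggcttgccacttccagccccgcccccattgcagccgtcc
Itgam, chr7:128062390-128062639, plus strand: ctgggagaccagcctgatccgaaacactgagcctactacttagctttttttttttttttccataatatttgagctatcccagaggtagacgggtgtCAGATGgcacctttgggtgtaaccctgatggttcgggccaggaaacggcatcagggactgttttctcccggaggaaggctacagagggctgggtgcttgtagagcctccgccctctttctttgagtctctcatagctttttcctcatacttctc
The Nsg2 run shown holds 2 copies of CAGGTG, with a CAGATG between them. Nsg2 has another RefSeq start, not shown, whose window holds neither CAGGTG nor CACCTG. Tcf7 also has 2 windows, and 1 of them holds CAGGTG. Drc1 has 1 CAGGTG near its start and Cd3d has 1 CACCTG. S1pr5 and Itgam hold 1 CANNTG each, of other letters. RefSeq windows of 250 bases before to 50 after the start were at hand for 19 of the 22 genes, and Klrg1, Gm17218 and Gm16288 were without one. CACCTG was searched on both strands, and occurred in a window of 6 of 11 genes that rose (54.5%: Nsg2, Cd3d, Drc1, Mcoln2, Cd163l1 and Tcf7) and of 0 of 8 that fell (0.0%). Among all 7953 tested genes with a window the share was 19.6%, and among all 32851 windows 20.2% held it. For CAGCTG, another E-box, the shares were 18.2% of the genes that rose, 12.5% of those that fell and 16.8% of tested genes. For any CANNTG, which includes both, the shares were 63.6% of the genes that rose, 87.5% of those that fell and 66.6% of tested genes. Id3 had no CANNTG in its window. The matches describe these letters only, since no binding was measured, and no test was made of so few genes.

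The genes of the E proteins themselves were not called. Among the 8 tested Id and E protein genes, Id3 rose, Id2 fell and no other was called. Tcf12 was at 9.75 to 12.1 FPKM in Ctrl and 12.6 to 14.6 FPKM in Id2KO (log2 fold change 0.34, adjusted p = 0.426). Tcf3 was at 2.33 to 2.84 FPKM in Ctrl and 1.66 to 2.14 FPKM in Id2KO (log2 fold change -0.31, adjusted p = 0.591). A list of known E protein targets had 16 tested members. Of these 3 rose (Id3, Cd3d and Tcf7), where 0.105% of all tested genes did, and none fell. Without overlap 7 were higher, against 7.11% of all tested genes, and the median was 0.60. Foxo1, a factor of quiescent lymphocytes in that list, was at 22.6 to 32.3 FPKM in Ctrl and 36.3 to 46.2 FPKM in Id2KO (adjusted p = 0.267).

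A list of genes of naive and memory T cells held 3 genes that rose. Of its 31 tested members these were Nsg2, Id3 and Tcf7, where 0.105% of all tested genes rose. None fell and 11 were higher without overlap, where 7.11% of all tested genes were, with a median of 0.47. Cxcr5, a chemokine receptor of follicle-homing lymphocytes, read 0.519, 0.602 and 1.81 FPKM in Ctrl and 6.91, 4.29 and 5.41 FPKM in Id2KO (adjusted p = 0.0624). Cd27 read 59.0, 53.9 and 58.6 FPKM in Ctrl and 86.4, 115 and 97.0 FPKM in Id2KO (adjusted p = 0.108). Slamf6 was at 8 to 13.3 FPKM in Ctrl and 16.3 to 32.8 FPKM in Id2KO (adjusted p = 0.298). These 3 genes did not pass, though no Id2KO library fell into the Ctrl range. A list of immature NK genes, which shares Tcf7, Emb, Cd27, Ltb, Xcl1, Il7r, Ccr7, Cd28 and Cd7 with the T cell list, had 1 call, Tcf7, among 24 tested members and a median of 0.24. Without overlap 6 of the 24 were higher, where 7.11% of all tested genes were. Cd226, Itga1 and Cxcr4 were the 3 lower without overlap, where 6.75% of all tested genes were. Cxcr3, a chemokine receptor in the immature list, was at 39.6 to 52.0 FPKM in Ctrl and 78.7 to 99.0 FPKM in Id2KO (adjusted p = 0.0832). These lists were chosen with earlier results of these data known, so their counts are a description.

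**Figure D4:**
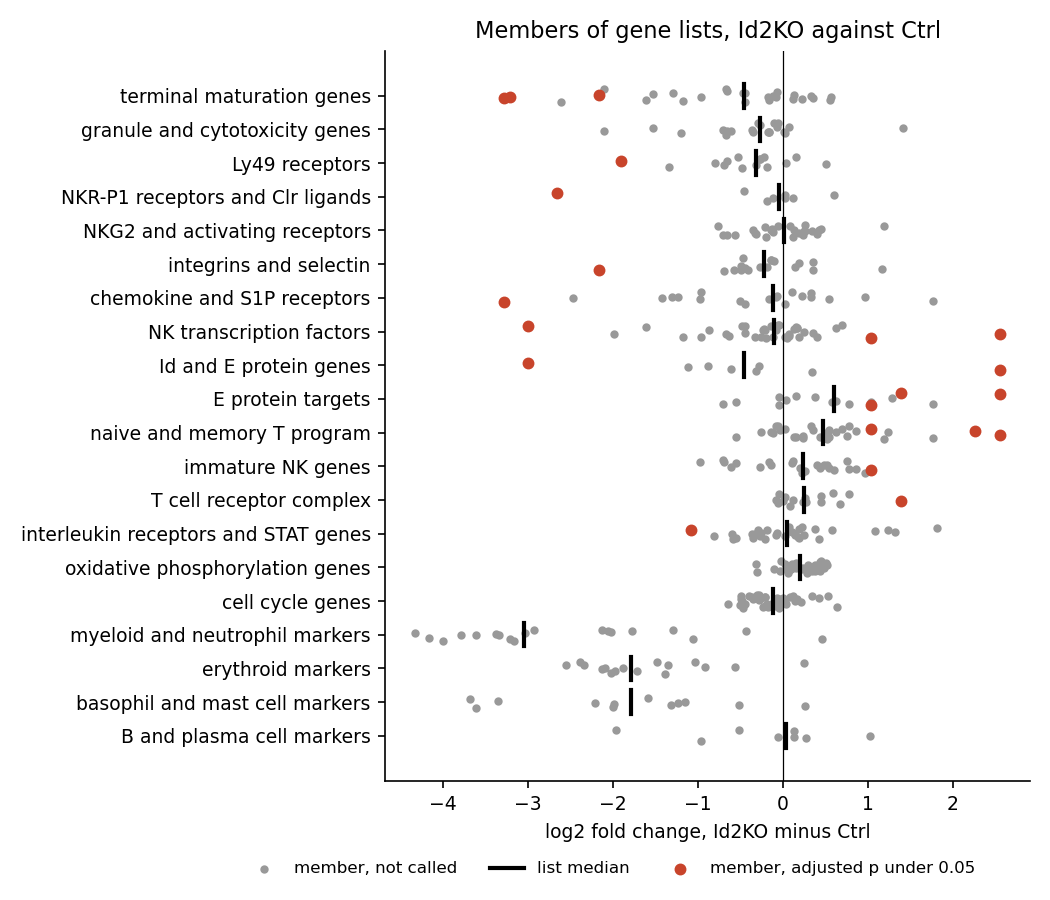
Log2 fold change, Id2KO minus Ctrl (horizontal axis), of every tested member (points) of 20 gene lists (rows), with the list median as a bar and members at an adjusted p under 0.05 in colour. Medians are below 0 for maturation and granule genes, above 0 for E protein targets and the T cell program, and lowest, at -3.04, for myeloid markers, which held no call.

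Lists for proliferation and metabolism held no call. The 45 tested cell cycle genes had a median of -0.11, with 1 gene higher and 1 lower without overlap, where 7.11% and 6.75% of all tested genes were. The 34 oxidative phosphorylation genes had a median of 0.20, with 29 of them above 0, where 49.0% of all tested genes were, and 5 higher without overlap, where 7.11% were. The 16 glycolysis genes had a median of 0.05, the 22 interferon-stimulated genes -0.14 and the 11 genes of the BCL2 family -0.02. Among the 18 integrin and selectin genes Itgam was the single call. Its partner chain gene Itgb2 was at 53.9 to 58.9 FPKM in Ctrl and 34.6 to 43.6 FPKM in Id2KO (log2 fold change -0.47, adjusted p = 0.275). Itgb2 was thus lower without overlap, and by much less than Itgam. The 22 ILC1 and tissue residency genes, the 14 TGF-beta pathway genes and the 24 immediate early genes held no call, with medians of -0.10, -0.18 and 0.01. Of 38 NK transcription factor genes the 3 calls were Id3 and Tcf7, which rose, and Id2, and the median was -0.10.

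Lineages outside the sort differed in amount between the libraries. The summed level of the myeloid and neutrophil list was 2234.7, 3713.8 and 931 FPKM in Ctrl and 63.7, 192 and 1061.6 FPKM in Id2KO. Of its 19 tested members 18 had a fold change below 0, where 50.9% of all tested genes did, and none was called. Without overlap 11 of the 19 were lower, where 6.75% of all tested genes were. Elane, a gene of neutrophil precursors, read 37.6, 37.9 and 4.4 FPKM in Ctrl and 0 in each Id2KO library. The summed erythroid list read 956, 4897.5 and 789 FPKM in Ctrl and 178, 288 and 1964.1 FPKM in Id2KO, and the basophil list 652, 419 and 173 FPKM in Ctrl and 20.6, 31.6 and 103 FPKM in Id2KO. The first and second Id2KO libraries were thus below every Ctrl library in each of these 3 sums. The third was inside the Ctrl range for the myeloid and erythroid sums and below every Ctrl library for the basophil sum. By gene, 10 of 12 tested basophil list members and 1 of 16 erythroid members were lower without overlap. Ighm, an immunoglobulin heavy chain gene, read 246, 160 and 164 FPKM in Ctrl and 392, 411 and 345 FPKM in Id2KO (log2 fold change 1.03, limma adjusted p = 0.0596). The B cell genes Ms4a1 and Pax5 were at most 0.562 and 0.254 FPKM in the same 6 libraries. Cd79a, a B cell receptor signalling gene, was at most 1.52 FPKM in Ctrl and reached 4.57 FPKM in the third Id2KO library. The part of B cells in the Ighm values was not tested.

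The 15 genes next in order of p, among those with a symbol or an ID alone and no overlap, had an adjusted p between 0.0506 and 0.0914, 7 higher and 8 lower. Beside those given above they include Emb, which encodes the transporter partner embigin, at 81.5, 92.8 and 85.7 FPKM in Ctrl and 155, 149 and 137 FPKM in Id2KO (adjusted p = 0.0624). Sulf2, a heparan sulfate sulfatase gene, read 17.8, 11.4 and 18 FPKM in Ctrl and 6.64, 6.87 and 4.56 FPKM in Id2KO (adjusted p = 0.0637). Kcnip3, a calcium-binding protein gene, read 9.04, 8.55 and 8.12 FPKM in Ctrl and 2.34, 4.01 and 0.92 FPKM in Id2KO (adjusted p = 0.0697). The others were Ehbp1l1 and Marveld1, lower, Rras2, higher, and 1 gene without a symbol, higher. With voom on the recovered reads, 33 of 12381 genes (0.267%) passed, 18 higher and 15 lower. They held 17 of the 22 genes and 9 of these 15. The 5 genes that voom did not call were Cd163l1, Gm16288, Drc1, Plcd3 and Slc27a4.

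Floxed Id2 is also what separates DKO from Tcf1KO by genotype, groups that both carry Ncr1Cre and floxed Tcf7 and share no library with Id2KO and Ctrl. The sexes were not balanced between DKO and Tcf1KO. Ddx3y read 14.2, 0 and 0 FPKM in Tcf1KO and 16.7, 10.4 and 0 FPKM in DKO. DKO replicate 2 also held Xist, an RNA of female cells, at 124 FPKM. In that pair 7 genes passed (0.0565%), 3 higher (0.0242%) and 4 lower (0.0323%), with Id2 and Klrg1 among them. No gene passed, Id2 and Klrg1 included, without Tcf1KO replicate 1, without Tcf1KO replicate 3 or without DKO replicate 3, while 1 gene passed without Tcf1KO replicate 2 and 2 without DKO replicate 2. At an unadjusted p under 0.05 there were 834 genes (6.73%). Without overlap there were 1565 genes (12.6%), 711 of them higher (5.74%) and 854 lower (6.9%). Of the 22 genes called for Id2KO, 19 had the same direction there and 13 did so without overlap. The share of all tested genes with the same direction in both pairs was not counted, so these counts have no background beside them. Every one of the 22 had a smaller fold change there, and since the 22 were chosen on the first pair, the sizes are only set side by side. The median of the genes that fell was -2.16 in Id2KO against Ctrl and -0.30 in DKO against Tcf1KO, and that of the genes that rose was 1.69 and 0.65. Id2 itself read 114, 102 and 126 FPKM in Tcf1KO and 48.8, 41.2 and 36.8 FPKM in DKO, and fell by 1.41 (SE 0.16, limma adjusted p = 0.0109). The level of Id2 left in DKO was thus higher than in Id2KO in each library. Klrg1 read 30.2, 43.2 and 33.6 FPKM in Tcf1KO and 5.05, 4.43 and 4.71 FPKM in DKO, and fell by 2.66 (SE 0.295, adjusted p = 0.0109). S1pr5 read 7.4, 8.2 and 12 FPKM in Tcf1KO and 1.95, 3.55 and 1.43 FPKM in DKO (adjusted p = 0.251). Itgam read 10.6, 7.39 and 6.65 FPKM in Tcf1KO and 4.29, 4.93 and 4.14 FPKM in DKO (adjusted p = 0.347). Id3 read 2.45, 4.72 and 5.78 FPKM in Tcf1KO and 10.3, 9.72 and 15.4 FPKM in DKO (adjusted p = 0.347). These 3 genes had the direction seen in Id2KO, without overlap and without a call.

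Other genes called for Id2KO overlapped between DKO and Tcf1KO or went the other way. Fgl2 was at 48.6 to 89.5 FPKM in Tcf1KO and 50 to 73.4 FPKM in DKO, overlapping, with a log2 fold change of -0.14. Klrb1b was at 22.1 to 34.2 FPKM in Tcf1KO and 21.6 to 27.3 FPKM in DKO, with a log2 fold change of -0.22. Sult5a1 was at 0 in the 3 Tcf1KO libraries and at 0.126, 0 and 0 FPKM in DKO. For these 3 genes the DKO libraries did not stand apart from the Tcf1KO libraries. Gm16288 went the other way without overlap, at 1.36, 1.47 and 1.75 FPKM in Tcf1KO and 0.91, 0.518 and 0.764 FPKM in DKO. Tcf7, whose floxed allele both groups carry, still read 29.6, 37.3 and 38.0 FPKM in Tcf1KO and 53.9, 60 and 73.3 FPKM in DKO. The difference between the pairs was tested in limma for every gene, and 0 of 12384 passed (0.0%), with 735 genes (5.94%) at an unadjusted p under 0.05. For the 22 genes its adjusted p ranged from 0.085, for Id2, Sult5a1 and Gm16288, to 0.973 for Tcf7. Voom on the recovered reads also gave 0.

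**Figure D5:**
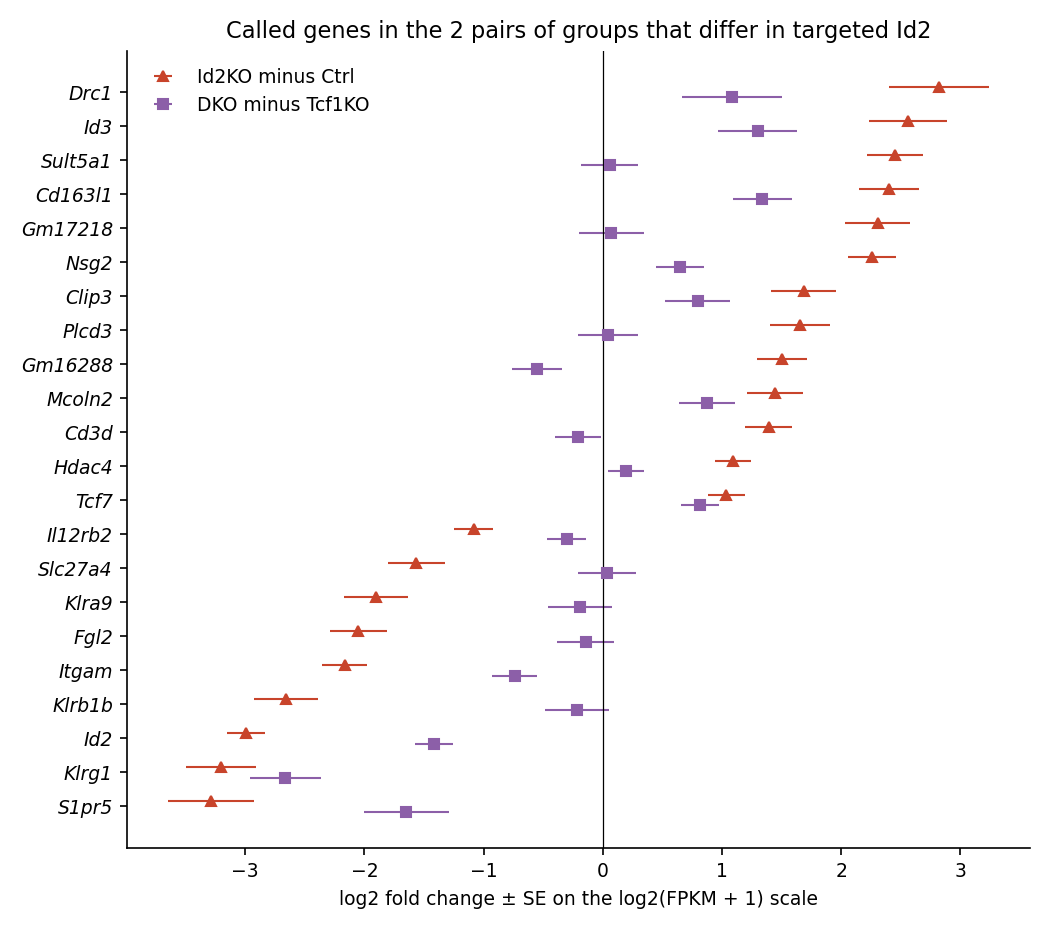
Log2 fold change with its SE (horizontal axis) of the 22 genes called for Id2KO, 1 row a gene, in Id2KO minus Ctrl (triangles) and in DKO minus Tcf1KO (squares). In all 22 rows the square lies nearer to 0 than the triangle, and for Gm16288, Cd3d and Slc27a4 it lies on the other side of 0.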

How the data were processed

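RNA from NK1.1+ CD49b+ bone marrow cells was sequenced in 12 libraries, 3 in each of 4 groups. The authors deposited FPKM values for 37991 genes, and these were used as deposited. Per the submitters' processing notes, the tools were TopHat2 2.1.0, Trimmomatic 0.33, HTSeq 0.6.1 and edgeR, with the mm10 genome. How multiply mapped reads and strand were handled is not given in the sources used here. GENCODE M21 gave symbols for 32938 genes.

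The tests used log2(FPKM + 1) of genes that reached 1 FPKM in 3 or more libraries. Limma 3.58.1 in R 4.3.3 (lmFit and eBayes with a variance trend, group as the term, 12 libraries) gave two-sided tests with Benjamini-Hochberg adjustment over 12384 genes and a threshold of 0.05. Tested on simulated data first, the fit was then repeated under the alternatives of the closing section. For 23703 of 23707 genes above 0, FPKM values were whole multiples of the value of 1 read (tolerance 0.01 to 0.05 reads), and the reads so recovered went into voom. Named are the called genes, the given markers, the next 15 genes by p whose groups do not overlap, the Id and E protein genes, and up to 5 genes of each list by p, with others from the marker lists as levels. Members and lists were chosen with earlier results of these data known. Tables used pandas 2.3.3 and numpy 2.4.6, and figures matplotlib 3.10.9, under Python 3.11.15. Promoter windows came from RefSeq (GRCm38.p6).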

Additional observations from a re-analysis of the deposited data

How the results depend on the processing

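Against 22 genes called for Id2KO, 2 were called with only the 2 groups in the fit, 8 without the 3 libraries of lowest weight (Id2KO replicate 3, DKO replicate 3 and Ctrl replicate 2) and 11 with the other-lineage score as a term. Leaving out 1 library gave 13 to 27, with 13 without Id2KO replicate 1 and 14 without Id2KO replicate 2. Between 15 and 33 were called under voom, array weights, robust or untrended variance, quantile or median scaling, other filters (none, or FPKM 5) and other pseudocounts (0.5, 0.1). A filter at FPKM 5 changed the split to 9 higher and 14 lower, and a pseudocount of 0.1 to 6 higher and 9 lower. For DKO against Tcf1KO, with 7 calls, the count was 4 at a pseudocount of 0.1, with no filter, with a filter at FPKM 5 and with the score, 2 with voom and without the 3 libraries, 1 with only its 2 groups, and 0 to 7 when 1 library was left out. The difference between the pairs gave 1 call without a variance trend and 0 to 1 when 1 library was left out. With the replicate number as a block, 22 genes were called for Id2KO, 20 of them shared, and 15 for DKO against Tcf1KO. The numbers do not pair the Ctrl and Id2KO libraries, whose same-numbered deviations had correlations of 0.029, -0.061 and -0.045. For DKO and Tcf1KO they were 0.2, 0.084 and 0.272. The log2 fold change of Klrb1c turned to 0.066 without the 3 libraries, and ranged from -0.209 to 0.025 when 1 library was left out. That of Cd3e turned to 0.22 with the score, and ranged from -0.427 to 0.242 when 1 library was left out. The cause of these changes was not tested. Genes under about 1 FPKM rest on few reads, and there the pseudocount sets the size of a fold change.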
